A study of Mus musculus with 12 samples.

Results

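The genes described here are 36 mouse genes of sugar breakdown and of the response to low oxygen, listed by name and role with earlier results of these data known. They comprise 4 glucose and lactate transporters, 17 glycolytic enzymes, 3 enzymes that switch the flow of carbon, 6 hypoxia-inducible factors and oxygen sensors, and 6 targets of those factors outside glycolysis. Of the 36 genes, 33 had a probe set assigned to them alone and were measured, among 18193 genes in all. Gpi1, Gapdh and Eno1 had no such probe set and were not analysed as members.

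The samples were 4 lung adenocarcinoma cell lines, each hybridised to 3 one-colour Affymetrix arrays that the labels call biological replicates. KC1, KC2 and KC3 are labelled highly metastatic, and KC4 poorly metastatic. All 4 lines carry K-rasLA1/+, a latent allele of the K-ras oncogene, together with Cdkn1a-/-, a deletion of the gene for the cell cycle inhibitor p21, on a background labelled 127s. Thus no line with an intact Cdkn1a was compared. The lines came from 6 primary lung tumours of 4 mice, without a statement of which tumour or mouse gave which line, and were grown in RPMI 1640 with 10% fetal bovine serum. The labels name no oxygen treatment, so hypoxia is here the name of a gene set and not of a condition. Because KC4 was the only poorly metastatic line, its metastatic class and its other properties as a line cannot be told apart.

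Glycolysis splits glucose into pyruvate in the cytosol, and many tumour cells turn that pyruvate into lactate and export it. When oxygen is low, the prolyl hydroxylases stop marking the factors HIF-1alpha and HIF-2alpha for destruction by the Vhl ubiquitin ligase, and the factors pair with Arnt and switch on genes for glucose uptake, glycolysis, lactate export, acid handling and mitophagy. In lung adenocarcinoma this programme is studied both for tumour growth and for spread.

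The values are signal intensities, and each array had been scaled to a trimmed mean signal of 500.002 to 500.003. A difference is given on the log2 scale after signals under 16 were set to 16, so a difference of 1 is a 2-fold change. A gene was called when limma's moderated test gave a Benjamini-Hochberg adjusted p under 0.05 over all 18193 genes and the log2 difference was at least 1. The p-values measure the spread between arrays of the same lines, not between tumours or mice. Rank correlations between arrays of one line were 0.980 to 0.983 and those between lines 0.941 to 0.963. Array medians were 94.5 to 112 in KC3 against 106 to 128 in the other lines, and 17.5 to 20.0% of signals lay at the floor in KC3 against 15.3 to 18.2%. An 18S ribosomal RNA control probe set read 2706 to 4383 in KC4 and 369 to 679 in the other lines. The part of these array properties in the differences below was not tested.

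The lines matched their label as epithelial tumour cells. All 8 epithelial markers had mean log2 signals over 8 in every line, with summed signals of 65782 to 77516 in KC4 and 78230 to 97067 in the other lines. None of the 9 fibroblast, 6 endothelial and 3 measured erythroid markers passed that level in any line. Of 7 measured leukocyte markers, 0, 3, 2 and 1 passed it in KC1 to KC4. The part of these marker levels in the differences was not tested either.

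KC3, itself labelled highly metastatic, had lower levels than KC1 and KC2 of 8 of the 33 genes, among them the glucose importer Slc2a1, the lactate exporter Slc16a3 and 2 of 14 measured glycolytic enzymes. Of the 33 genes, 9 were called higher in KC1 than in KC3 (all genes, 5.33%) and 1 lower (all genes, 2.89%), a total of 10 where 8.21% of all genes were called. Between KC2 and KC3, 10 were called higher in KC2 (all genes, 5.90%) and 2 lower (all genes, 4.94%), a total of 12 against 10.8%. The 2 comparisons share the KC3 arrays. The 8 called lower in KC3 than in both KC1 and KC2 were 24.2% of the 33 against 3.02% of all genes. They were the transporters Slc2a1 and Slc16a3, the enzymes Pfkl and Tpi1, the pyruvate dehydrogenase kinase Pdk1, the prolyl hydroxylase Egln3, and the targets Bnip3 and Ankrd37. One gene, Epas1, was called higher in KC3 than in both, against 1.78% of all genes. The median difference over the 33 genes was 0.54 for KC1 minus KC3 and 0.32 for KC2 minus KC3, where the medians over all genes were 0.00 and 0.05. Centring each array on its median moved the all-gene medians by −0.21 and −0.24, and the counts for KC1 minus KC3 became 6 higher and 2 lower and for KC2 minus KC3 8 higher and 3 lower. Over all genes the same centring turned the balance from 969 higher and 525 lower to 716 and 913 for KC1 minus KC3, and from 1073 and 899 to 740 and 1481 for KC2 minus KC3. No called gene of the 33 changed direction under that centring or under quantile normalization.

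Comparison with the poorly metastatic line gave fewer calls. The mean of the 3 highly metastatic lines against KC4 gave 1 call of 33 genes, Slc16a3, against 5.45% of all genes. For KC1 minus KC4 there were 3 calls (all genes, 5.54%), each of them higher in KC1 (all genes, 3.49%). For KC2 minus KC4 there were 3 higher (all genes, 5.02%) and 1 lower (all genes, 4.46%), against 9.48% in either direction. For KC3 minus KC4 there were 4 higher (all genes, 3.52%) and 4 lower (all genes, 4.70%), against 8.22% in either direction. Median centring left the KC3 minus KC4 counts at 4 and 4, while those over all genes went from 641 higher and 855 lower to 969 and 640. The 4 comparisons share the KC4 arrays. Between KC1 and KC2 only Slc16a3 was called, against 5.01% of all genes. By limma's moderated F test with the same minimum difference, 16 of the 33 genes differed among the 4 lines. That was 48.5%, against 19.0% of all genes. The 33 were brighter, however: 26 of them had a mean log2 signal over 8, against 8749 of all 18193 genes. Dimmer genes varied more between arrays of a line. The part of signal level in this and the other gaps between the 33 and all genes was not tested.

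**Figure D1:**
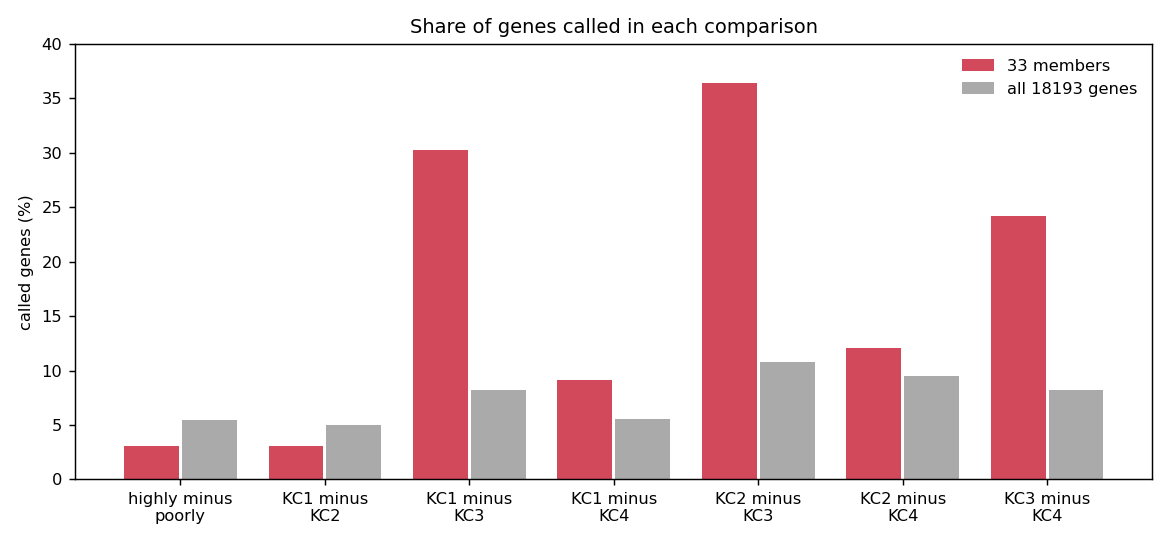
Bars show the percentage of genes called in each comparison (y axis, %), for the 33 measured glycolysis and hypoxia genes, labelled members in the key (red), and for all 18193 genes (grey). The red bars reach 30.3% for KC1 minus KC3 and 36.4% for KC2 minus KC3, and 3.03% for the highly minus the poorly metastatic lines.

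**Figure D2:**
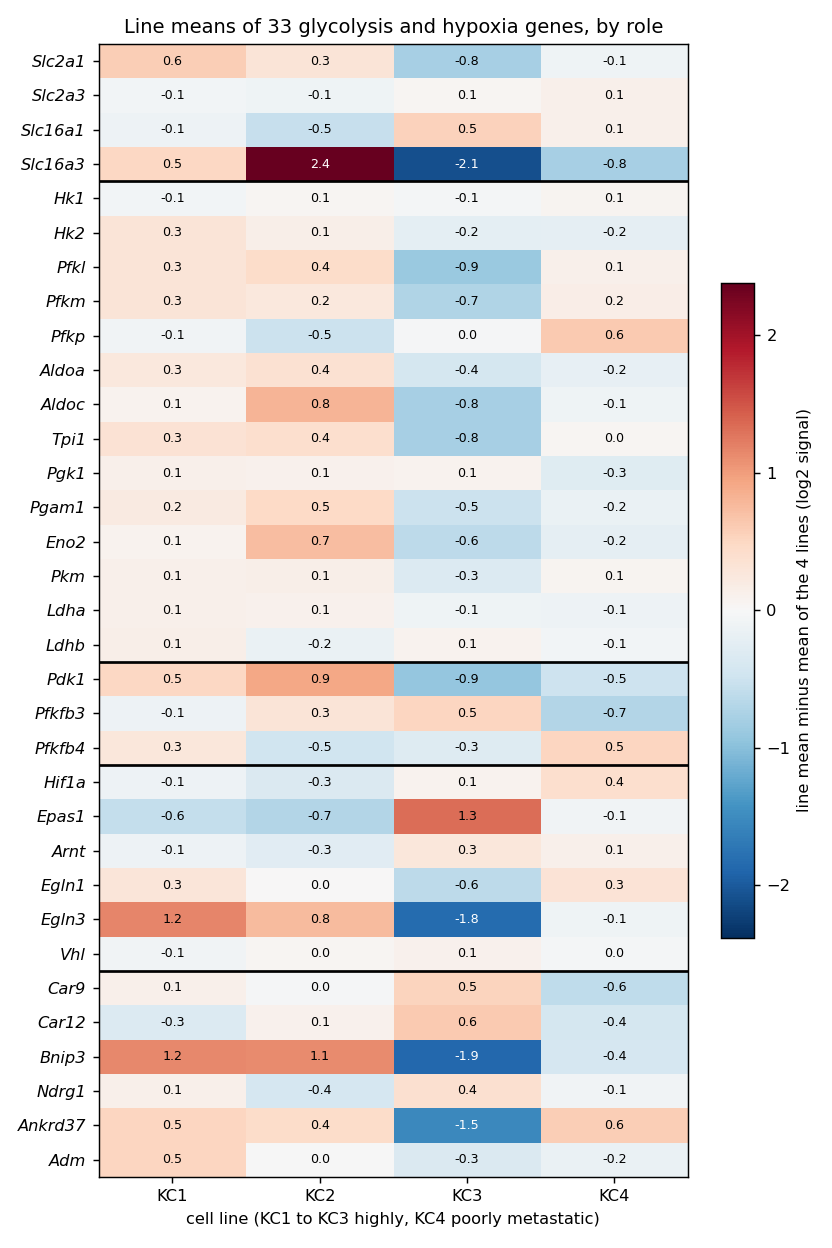
Each cell gives a gene's line mean log2 signal minus the mean of the 4 lines, with genes in rows grouped by role and lines in columns. Red is above and blue below the mean of the lines. KC3 has the lowest line mean for 17 of the 33 genes (51.5%), as it has for 30.0% of all genes.

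A line was taken as set apart when a gene was called in the same direction against each of the other 3. KC3 was set apart by 5 of the 33 genes (15.2%), against 2.39% of all genes. It was lower for Slc16a3, Egln3, Bnip3 and Ankrd37 and higher for Epas1. KC2 was set apart by 1 gene, Slc16a3, which was higher, against 1.84% of all genes. No gene of the 33 set apart KC1 or KC4, against 0.863% and 1.63% of all genes. With another choice of probe set 1 gene set apart KC1, Adm, whose values are given with the hypoxia targets.

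Among the transporters, Slc16a3 spanned the widest range of the 33 genes. It encodes MCT4, a monocarboxylate transporter that exports lactate from glycolytic cells. Slc16a3 read 401, 395 and 473 on the KC1 arrays, 1745, 1439 and 1477 on the KC2 arrays, 43.6, 92.1 and 83.9 on the KC3 arrays and 177, 175 and 167 on the KC4 arrays. No 2 lines overlapped, and the order ran from KC2 through KC1 and KC4 to KC3. KC2 exceeded KC3 by 4.48 ± 0.24 on the log2 scale (SE, limma adjusted p = 9.30e-07), a 22.2-fold difference. KC1 exceeded KC3 by 2.60 ± 0.24 (SE, limma adjusted p = 3.84e-05). KC2 exceeded KC1 as well, by 3.67-fold (log2 difference of KC1 minus KC2 −1.88, SE 0.24, limma adjusted p = 4.64e-04). Against KC4 the gene was higher in KC2 by 3.16 and in KC1 by 1.29, and lower in KC3 (−1.31, limma adjusted p = 0.00251). Without KC3 replicate 1, which read the lowest, the KC3 minus KC4 difference was −0.98 and was no longer called, so that KC3 was no longer set apart by this gene. The mean of the highly metastatic lines exceeded KC4 by 1.04 ± 0.20 (SE, limma adjusted p = 0.00308), but the KC3 arrays all read below the KC4 arrays. That difference was −0.01 without KC2 and 0.92 without KC1, and 0.98 and 1.00 without KC3 replicate 2 or 3, none of them called, and with the line as a random block its adjusted p was 0.975.

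Slc2a1 encodes GLUT1, the main glucose importer of many tumour cells. Slc2a1 read 5581, 6221 and 6250 on the KC1 arrays, 4988, 4425 and 5407 on the KC2 arrays, 2305, 2112 and 2526 on the KC3 arrays and 3470, 3732 and 3980 on the KC4 arrays. All KC3 arrays read below all others, and all KC1 and KC2 arrays read above KC4. The difference was 1.38 ± 0.094 for KC1 minus KC3 (SE, limma adjusted p = 5.60e-06) and 1.09 ± 0.094 for KC2 minus KC3 (SE, limma adjusted p = 1.59e-05). The second was under 1 with the mean of the gene's probe sets (0.99) and with median centring (0.85). KC3 was also below KC4, by less than the minimum for a call (−0.69). Both further probe sets of Slc2a1 gave the same order of lines, with KC1 minus KC3 at 1.36 and 1.13.

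Slc16a1 encodes MCT1, a monocarboxylate transporter that carries lactate in either direction, and it ran opposite to Slc16a3. Slc16a1 read 3990, 4169 and 4298 on the KC1 arrays, 3164, 3138 and 3039 on the KC2 arrays, 6592, 6696 and 6476 on the KC3 arrays and 5065, 4647 and 5049 on the KC4 arrays. KC3 was the highest line and KC2 the lowest, with no overlap between any 2 lines. KC2 minus KC3 was −1.08 ± 0.043 (SE, limma adjusted p = 1.43e-07). A second probe set was dim, with line means of 4.71 to 5.56, and the mean of both gave −0.59 (limma adjusted p = 0.0709). The glucose importer Slc2a3 was dim in all lines, with means of 39.5 to 44.2 signal units and no call.

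The balance of the lactate carriers was compared within each array, as the log2 ratio of Slc16a1 over Slc16a3 with the KC4 mean set to 0. It was −1.53 ± 0.11, −3.82 ± 0.14 and 1.74 ± 0.59 in KC1 to KC3 (SD, n = 3 arrays each). The ratio describes unequal change of the pair and does not compare the abundance of the transporters.

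**Figure D3:**
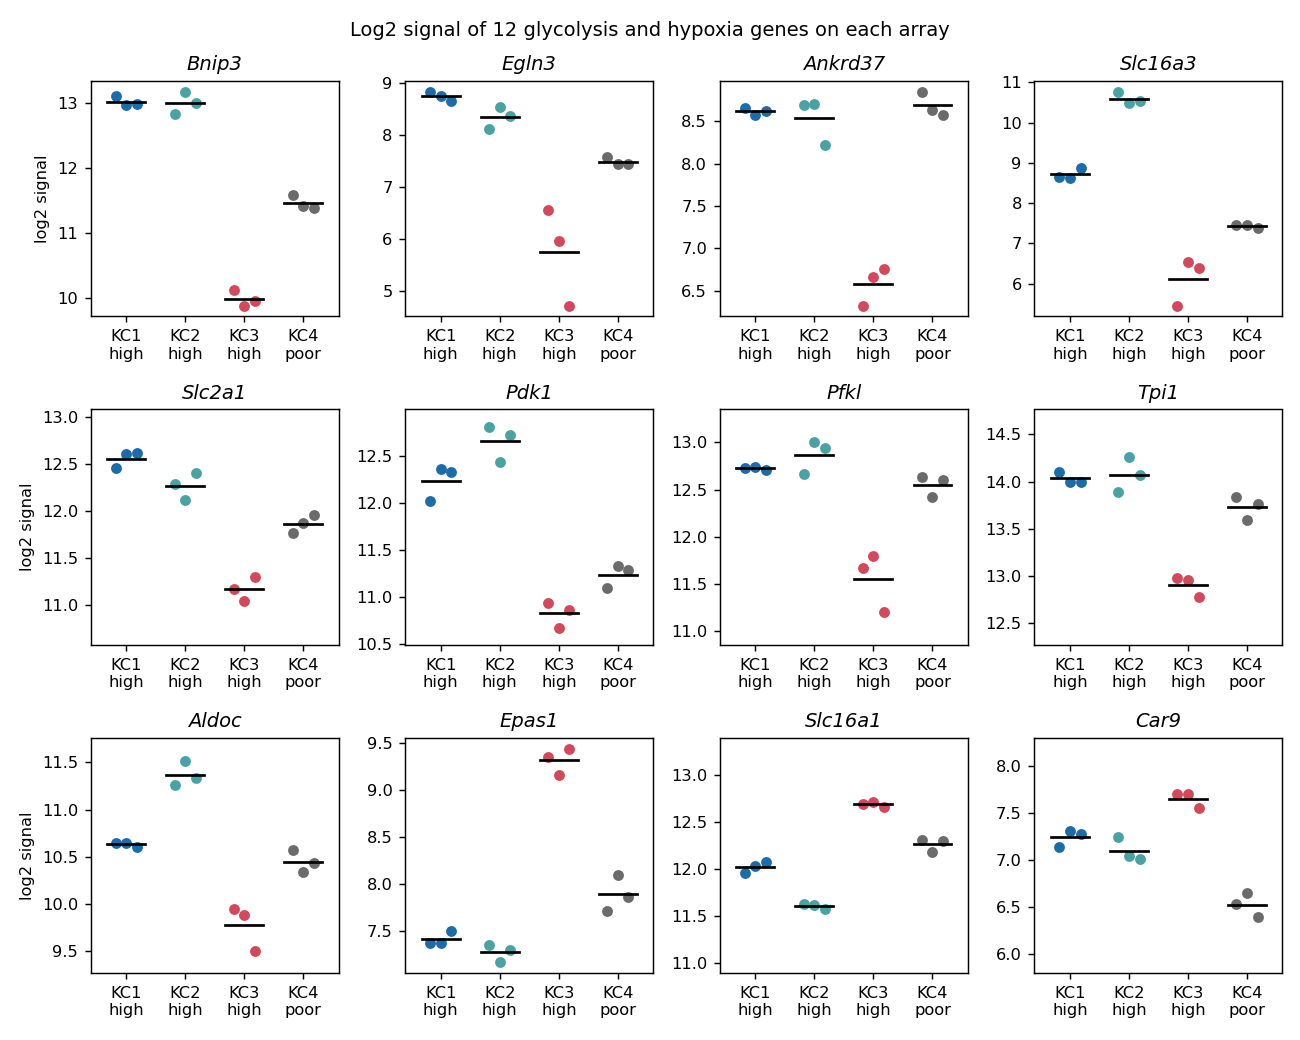
Each point is the log2 signal of a gene on 1 array (y axis, log2 of scaled signal), by cell line on the x axis, and the bar is the mean of 3 arrays. The KC3 points lie below those of every other line for Bnip3, Egln3, Ankrd37, Slc16a3, Slc2a1, Pdk1, Pfkl, Tpi1 and Aldoc, and above them for Epas1, Slc16a1 and Car9.

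The glycolytic enzymes did not share one order of the lines. Of 14 measured enzymes, 9 had their lowest line mean in KC3 (all genes, 30.0%). Of the 14, 3 were called higher in KC1 than in KC3 (all genes, 5.33%) and 4 higher in KC2 than in KC3 (all genes, 5.90%). The 4 include Eno2, which was close to the floor. None of the 14 was called between KC3 and KC4, against 8.22% of all genes. In some alternatives Pfkl, Pfkm or Aldoc was called there. With the mean of its probe sets Aldoc gave −1.06 (limma adjusted p = 5.06e-05). Pfkl, the liver-type subunit of phosphofructokinase, which commits sugar to glycolysis, read 6793, 6843 and 6721 on the KC1 arrays, 6511, 8164 and 7856 on the KC2 arrays, 3265, 3541 and 2355 on the KC3 arrays and 6346, 5495 and 6213 on the KC4 arrays. KC3 lay below all other arrays, KC4 came next, and KC1 and KC2 overlapped. The difference KC1 minus KC3 was 1.17 ± 0.15 (SE, limma adjusted p = 2.34e-04) and KC2 minus KC3 was 1.31 ± 0.15 (SE, limma adjusted p = 8.52e-05). The first was not called with median centring (0.97) or without KC3 replicate 3, where it was just short of the minimum at 1.00. Both further probe sets of Pfkl gave 1.14 to 1.46 for the same differences.

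The other phosphofructokinase subunits did not follow Pfkl as a group. Pfkm, the muscle-type subunit, averaged 445 ± 12.7, 430 ± 39.6, 227 ± 62.1 and 404 ± 10.5 in KC1 to KC4 (SD, n = 3). KC1 minus KC3 was 1.01 (limma adjusted p = 0.00127), and it ranged from 0.80 to 1.21 over the alternatives, of which leaving out KC1 replicate 1 or KC3 replicate 2 ended the call, as did both normalizations and a pseudocount of 16. Pfkp, the platelet-type subunit, read 2399, 2588 and 2348 on the KC1 arrays, 1822, 1887 and 1720 on the KC2 arrays, 2569, 2558 and 2485 on the KC3 arrays and 4002, 3960 and 4068 on the KC4 arrays. KC4 was highest and KC2 lowest, neither overlapping another line, and KC2 minus KC4 was −1.15 ± 0.045 (SE, limma adjusted p = 1.69e-07), or −0.85 with the mean of 3 probe sets. Within arrays, Pfkl over Pfkp relative to KC4 was 0.89 ± 0.06, 1.46 ± 0.19 and −0.34 ± 0.29 in KC1 to KC3 (SD, n = 3).

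Tpi1, triosephosphate isomerase, read 17509, 16417 and 16410 on the KC1 arrays, 15181, 19646 and 17244 on the KC2 arrays, 8056, 7904 and 6984 on the KC3 arrays and 14706, 12289 and 13888 on the KC4 arrays. The KC3 arrays again lay below all the rest. KC1 minus KC3 was 1.14 ± 0.10 and KC2 minus KC3 was 1.18 ± 0.10 (SE, limma adjusted p = 3.12e-05 and 1.73e-05). With median centring these were 0.93 and 0.94 and were not called. Both further probe sets of Tpi1 gave 1.12 to 1.63 for these differences.

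Aldoc, the aldolase that is most abundant in brain, read 1603, 1594 and 1556 on the KC1 arrays, 2461, 2940 and 2577 on the KC2 arrays, 982, 941 and 722 on the KC3 arrays and 1520, 1295 and 1380 on the KC4 arrays. KC2 was highest and KC3 lowest, and KC1 read above KC4 by a small margin. KC2 minus KC3 was 1.60 ± 0.12 (SE, limma adjusted p = 5.83e-06), while KC1 minus KC3 was 0.86 and not called. Eno2, the neuronal enolase, was close to the floor. Eno2 read 18.4, 38.6 and 41.1 on the KC1 arrays, 41.7, 45.9 and 61.0 on the KC2 arrays, 4.35, 11.9 and 26.9 on the KC3 arrays and 18.4, 28.7 and 30.4 on the KC4 arrays, and KC2 minus KC3 was 1.36 (limma adjusted p = 0.0140) with 2 KC3 arrays at the floor of 16, and 0.00 with a floor of 64. It was also lost without KC2 replicate 3 and without KC3 replicate 1 or 2, and rests on signals too low to rank.

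Pgam1, phosphoglycerate mutase, averaged 8646 ± 423, 10514 ± 1189, 5266 ± 72.3 and 6731 ± 552 in KC1 to KC4 (SD, n = 3). KC2 minus KC3 was 0.99, just under the minimum for a call. Aldoa, the widespread aldolase, averaged 15993, 17261, 10039 and 11738 in KC1 to KC4, and its KC2 minus KC3 difference of 0.78 was 0.10 to 0.54 on its other 4 probe sets. Pkm, pyruvate kinase, had line means between 8216 ± 662 in KC3 and 11510 ± 1578 in KC2.

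Several central enzymes differed among the lines by less than the minimum. Hk1, a widely expressed hexokinase, had line means of 11.43 to 11.57 on the log2 scale, a range of 0.14. Hk2, the inducible hexokinase, was 12.07 and 11.89 in KC1 and KC2 and 11.53 and 11.54 in KC3 and KC4. Ldha, the lactate dehydrogenase subunit that favours lactate formation, ranged by 0.25 (F test limma adjusted p = 0.126).

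Pgk1, phosphoglycerate kinase, read 18055, 15991 and 15529 on the KC1 arrays, 14042, 18770 and 16547 on the KC2 arrays, 16486, 16660 and 15360 on the KC3 arrays and 13279, 11284 and 12760 on the KC4 arrays. KC1, KC2 and KC3 overlapped and all their arrays read above KC4, by 0.40 ± 0.089 on average (SE, limma adjusted p = 0.00782), which is under the minimum. Its KC1 minus KC3 difference was 0.03, with a 95% interval of −0.22 to 0.28. Gapdh was read only by 3 control probe sets of the array, whose line means spanned 0.17 to 0.25 on the log2 scale. Ldhb, the other lactate dehydrogenase subunit, spanned 0.29 on its brightest probe set, but on 2 dimmer x_at probe sets KC1 exceeded KC3 by 2.16 and 2.05.

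**Figure D4:**
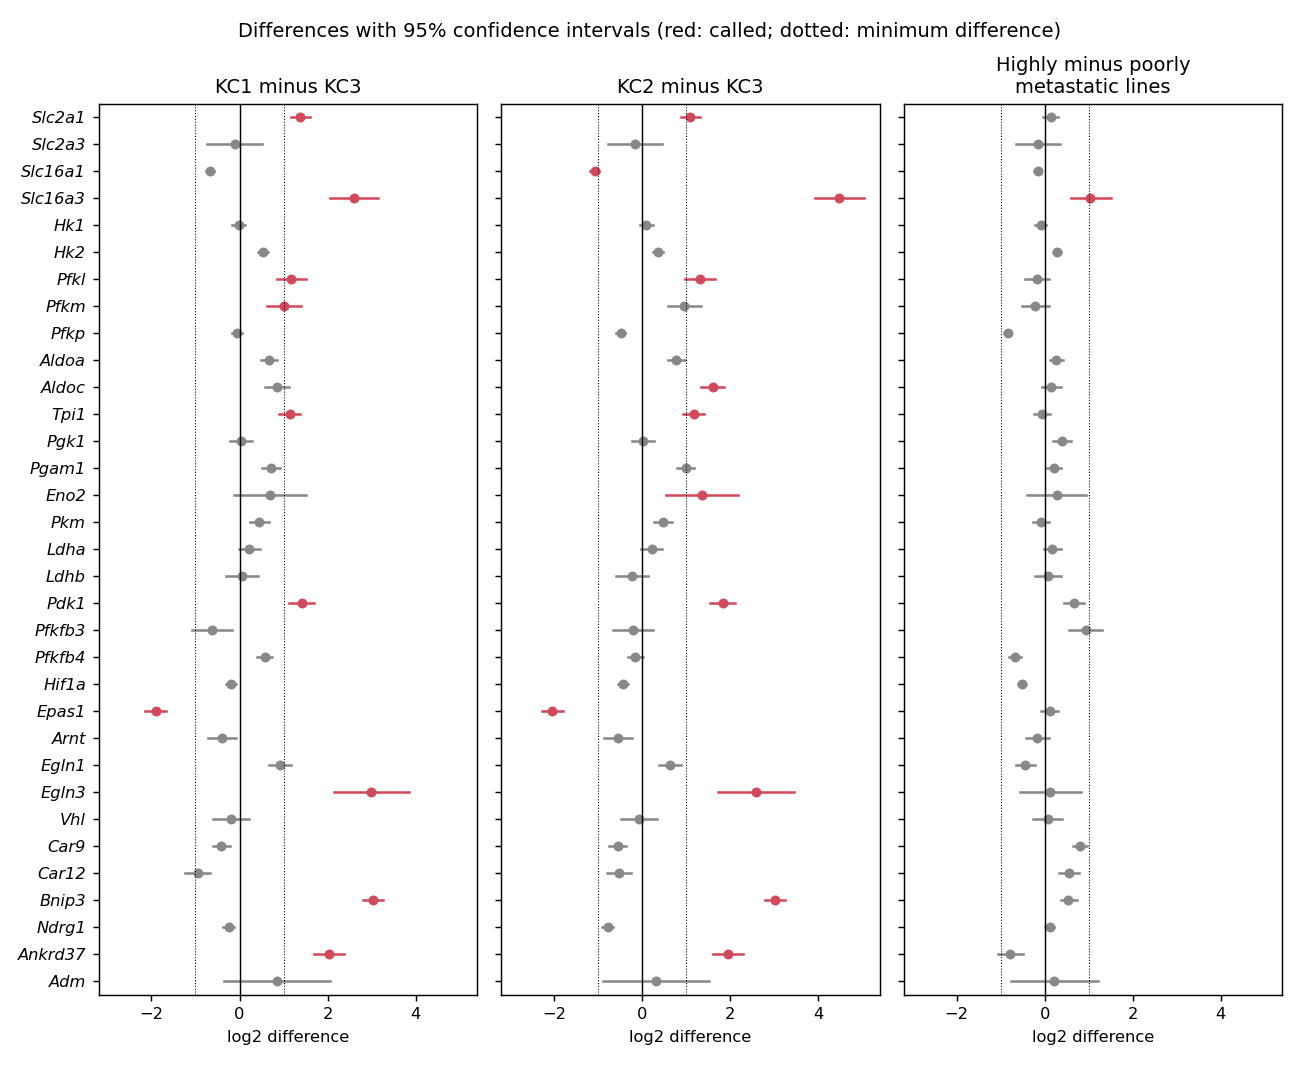
Points are log2 differences between lines (x axis) with 95% confidence intervals for each of the 33 genes (rows), red where called, and dotted lines mark the minimum difference. Bnip3 lies at 3.03 for KC1 minus KC3 and 3.01 for KC2 minus KC3, Slc16a3 reaches 4.48, and in the right panel, for the highly minus the poorly metastatic lines, only Slc16a3 is red.

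Of the enzymes that redirect carbon, Pdk1 was higher in KC1 and KC2 than in KC3. Pdk1 is a pyruvate dehydrogenase kinase through which HIF-1 holds pyruvate back from the mitochondria. Pdk1 read 4161, 5255 and 5141 on the KC1 arrays, 7182, 5543 and 6744 on the KC2 arrays, 1964, 1638 and 1874 on the KC3 arrays and 2199, 2577 and 2497 on the KC4 arrays. KC3 was lowest, KC4 slightly above it, and KC1 and KC2 read above both without overlap. On the log2 scale KC1 minus KC3 was 1.41 ± 0.13 (SE, limma adjusted p = 3.19e-05) and KC2 minus KC3 was 1.83 ± 0.13 (SE, limma adjusted p = 4.33e-06). KC2 also exceeded KC4, by 1.42 (limma adjusted p = 2.56e-05), whereas KC1 minus KC4 fell just short of the minimum at 1.00. On 2 further bright probe sets KC1 minus KC3 was 1.02 and 1.41. KC3 minus KC4 was 0.05 and 0.15 on them, against −0.41 on the brightest, so that KC4 was the lowest line there. KC1 and KC4 averaged 11.09 and 10.02 on the first, and 10.01 and 8.45 on the second. The class differences were 0.93 and 1.26, against 0.67 on the brightest. With the mean of the gene's probe sets KC1 minus KC4 was 1.01 and called.

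Pfkfb3 and Pfkfb4 make fructose 2,6-bisphosphate, the activator of phosphofructokinase, and had class differences of opposite sign, 0.93 and −0.68. Pfkfb3 averaged 124 ± 12.3, 165 ± 15.6, 191 ± 13.3 and 85.6 ± 28.4 in KC1 to KC4 (SD, n = 3). KC3 minus KC4 was 1.20 ± 0.20 (SE, limma adjusted p = 0.00136), but a second probe set was flat, at 6.39 to 6.56 in all lines, and the mean of both gave 0.56. Without KC4 replicate 1, the lowest, it was 1.00 and just short of a call. Pfkfb4 averaged 723 ± 9.80, 438 ± 43.6, 487 ± 26.4 and 860 ± 53.5. For Pfkfb4 all arrays of the highly metastatic lines read below KC4 (limma adjusted p = 3.15e-05), by less than the minimum.

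Among the factors and sensors, Epas1 and Egln3 set KC3 apart in opposite directions. Epas1, which encodes HIF-2alpha, was the only gene of the 33 that set KC3 apart as higher. Epas1 read 165, 166 and 181 on the KC1 arrays, 163, 144 and 157 on the KC2 arrays, 653, 574 and 688 on the KC3 arrays and 210, 274 and 233 on the KC4 arrays. All KC3 arrays lay above all others, and KC1 and KC2 were lowest. KC3 exceeded KC1 (KC1 minus KC3 −1.90, SE 0.10, limma adjusted p = 1.51e-06) and KC2 (KC2 minus KC3 −2.04, SE 0.10, limma adjusted p = 6.58e-07). It exceeded KC4 by 1.42 ± 0.10 (SE, limma adjusted p = 8.59e-06). A second, dimmer probe set gave 6.01 in KC3 and 5.78 in KC4 against 4.03 and 4.46 in KC1 and KC2. With the mean of both, KC3 minus KC4 was 0.83, so the higher level of KC3 than of KC4 was not called there, while the higher level than in KC1 and KC2 was.

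Hif1a, which encodes HIF-1alpha, read 5275, 5640 and 5707 on the KC1 arrays, 4663, 4526 and 4988 on the KC2 arrays, 6536, 6250 and 6346 on the KC3 arrays and 7735, 7729 and 8264 on the KC4 arrays. KC4 was the highest line and KC2 the lowest, with no overlap between lines. The highly metastatic lines were lower than KC4 by 0.52 on average (−0.52 ± 0.040, SE, limma adjusted p = 1.11e-05), under the minimum. On 3 further, dimmer probe sets that difference was −1.12, −0.51 and 0.06. The levels are of RNA, whereas these factors are regulated largely through protein stability, which was not measured. The within-array ratio of Hif1a over Epas1, relative to KC4, was −0.03 ± 0.06, −0.12 ± 0.08 and −1.73 ± 0.12 in KC1 to KC3 (SD, n = 3). It uses the brightest probe set of each gene and depends on that choice. On the dimmer Epas1 probe set KC3 minus KC4 was only 0.23, and KC1 and KC2 averaged 4.03 and 4.46 against 5.78 in KC4. Arnt, the partner of both factors, ranged from 576 ± 83.6 in KC2 to 837 ± 32.3 in KC3, and Vhl, the ligase subunit, ranged by 0.19 on the log2 scale.

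Egln3 encodes PHD3, an oxygen-sensing prolyl hydroxylase that is itself a HIF target. Egln3 read 456, 428 and 402 on the KC1 arrays, 277, 371 and 330 on the KC2 arrays, 94.3, 62.7 and 26.4 on the KC3 arrays and 189, 174 and 174 on the KC4 arrays. KC3 lay below all other lines and varied more than they did, with an SD of 0.94 on the log2 scale against 0.07 to 0.21. KC1 minus KC3 was 2.99 ± 0.38 (SE, limma adjusted p = 2.44e-04) and KC2 minus KC3 was 2.59 ± 0.38 (SE, limma adjusted p = 4.66e-04). KC3 minus KC4 was −1.73 (limma adjusted p = 0.00618), and without KC3 replicate 3, the lowest array, it was −1.22. KC1 minus KC4 was 1.26 (limma adjusted p = 0.0373), a call kept in 9 of 22 alternatives although the difference stayed between 1.19 and 1.55. It was lost without any 1 array of KC1, KC2 or KC4, without KC3 replicate 2, without KC2 as a line, and under both normalizations. A second probe set gave 3.28 and 2.85 for KC1 minus KC3 and KC2 minus KC3. On it KC1, KC2 and KC4 averaged 8.22, 7.80 and 6.38. KC2 minus KC4 was 0.85 and not called on the brightest probe set, and 1.13 and called with the mean of both (limma adjusted p = 0.0306). Egln1, which encodes PHD2, the main sensor in most cells, averaged 1898 ± 36.2, 1563 ± 217, 1002 ± 86.8 and 1947 ± 220 in KC1 to KC4, so KC3 was the lowest line here too, by 0.96 against KC4 (−0.96) and under the minimum.

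Bnip3, a mitochondrial protein that marks mitochondria for removal, had the smallest adjusted p of the 33 genes for KC1 minus KC3 and for KC2 minus KC3. Bnip3 read 8857, 7969 and 8079 on the KC1 arrays, 7305, 9227 and 8188 on the KC2 arrays, 1118, 944 and 997 on the KC3 arrays and 3080, 2727 and 2664 on the KC4 arrays. KC1 and KC2 overlapped, KC4 lay below both, and KC3 lay below KC4. The difference was 3.03 ± 0.10 for KC1 minus KC3 (SE, limma adjusted p = 7.97e-08), or 8.15-fold, and 3.01 ± 0.10 for KC2 minus KC3 (SE, limma adjusted p = 5.85e-08). Against KC4, KC1 was higher by 1.56 and KC2 by 1.54, and KC3 was lower (−1.47, limma adjusted p = 5.28e-06). The calls of Bnip3 between lines held in every alternative other than the minimum log2 difference of 2. KC1 minus KC2 was 0.02, with a 95% interval of −0.21 to 0.24. The class difference of 0.54 was under the minimum, and without KC3 it was 1.55 and called, as were Egln3 at 1.06 and Pdk1 at 1.21.

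Ankrd37, an ankyrin repeat protein known as a HIF-1 target, had a different order. Ankrd37 read 404, 382 and 392 on the KC1 arrays, 413, 418 and 298 on the KC2 arrays, 80.1, 101 and 109 on the KC3 arrays and 460, 400 and 382 on the KC4 arrays. Here KC1, KC2 and KC4 overlapped and KC3 alone was low. The differences were 2.03 for KC1 minus KC3, 1.95 for KC2 minus KC3 and −2.11 for KC3 minus KC4 (each SE 0.15, limma adjusted p = 9.70e-06, 8.22e-06 and 7.65e-06). The mean of the highly metastatic lines was 0.78 below KC4 (−0.78), and without KC1 or without KC2 it was −1.13 or −1.09 and called.

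The 4 genes that set KC3 apart as lower are shown with their promoters, because all were low in the same line and are known targets of the HIF factors. The sequences are those of RefSeq for GRCm38.p6, 5′ to 3′ on the gene's strand, from 250 bases before to 50 after the annotated start. Capitals mark ACGTG and GCGTG, the core letters that HIF recognises, on either strand (CACGT and CACGC where they lie on the other strand). In CACGTG both strands match and the matches overlap, and in CACGCGTG a match on each strand overlaps by 2 bases. Pgk1 is printed for comparison, as a gene that was level across KC1, KC2 and KC3. The windows are chr7:138909457-138909756 on the minus strand for Bnip3, chr12:54203825-54204124 on the minus strand for Egln3, chr8:45999801-46000100 on the minus strand for Ankrd37, chr11:120948817-120949116 on the plus strand for Slc16a3 and chrX:106186850-106187149 on the plus strand for Pgk1.
Bnip3: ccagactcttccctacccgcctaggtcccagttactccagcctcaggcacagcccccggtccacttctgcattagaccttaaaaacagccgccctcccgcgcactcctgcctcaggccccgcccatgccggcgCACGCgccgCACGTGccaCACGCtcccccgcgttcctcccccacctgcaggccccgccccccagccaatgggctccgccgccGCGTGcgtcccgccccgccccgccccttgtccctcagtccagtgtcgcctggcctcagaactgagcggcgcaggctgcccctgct
Egln3: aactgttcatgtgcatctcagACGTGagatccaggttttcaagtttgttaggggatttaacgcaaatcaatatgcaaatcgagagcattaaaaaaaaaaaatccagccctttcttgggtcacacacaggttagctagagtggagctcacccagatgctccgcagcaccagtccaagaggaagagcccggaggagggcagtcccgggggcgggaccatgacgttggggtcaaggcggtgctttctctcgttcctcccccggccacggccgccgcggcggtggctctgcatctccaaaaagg
Ankrd37: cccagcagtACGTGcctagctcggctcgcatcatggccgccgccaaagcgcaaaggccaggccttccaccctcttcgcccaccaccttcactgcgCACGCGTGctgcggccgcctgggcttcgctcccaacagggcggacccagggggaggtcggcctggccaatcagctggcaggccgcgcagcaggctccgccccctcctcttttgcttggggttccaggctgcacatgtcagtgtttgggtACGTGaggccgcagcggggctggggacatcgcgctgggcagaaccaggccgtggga
Slc16a3: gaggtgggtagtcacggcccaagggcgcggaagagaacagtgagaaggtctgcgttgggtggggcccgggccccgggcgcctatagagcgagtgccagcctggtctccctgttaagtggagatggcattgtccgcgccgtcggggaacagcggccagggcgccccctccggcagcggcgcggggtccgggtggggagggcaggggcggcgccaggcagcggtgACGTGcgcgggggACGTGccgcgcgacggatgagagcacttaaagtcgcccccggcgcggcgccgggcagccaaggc
Pgk1: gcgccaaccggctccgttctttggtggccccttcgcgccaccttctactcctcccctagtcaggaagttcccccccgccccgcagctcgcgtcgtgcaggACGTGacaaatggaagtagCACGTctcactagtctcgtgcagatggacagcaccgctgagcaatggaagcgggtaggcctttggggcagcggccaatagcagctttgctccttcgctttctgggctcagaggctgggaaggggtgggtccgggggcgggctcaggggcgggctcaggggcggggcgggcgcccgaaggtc

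Bnip3 held 5 matches, Ankrd37 4, Slc16a3 2 and Egln3 1, and Pgk1 held 2. In Slc16a3 the matches began 27 and 14 bases before the start, and in Egln3 the match began 229 bases before it. At least 1 match was present in 36 of the 46 RefSeq promoters of the 36 genes (all but Epas1, Ndrg1 and Slc2a3), or 78.3%, against 43.8% of all 32851 promoters of that length. The median number of CG dinucleotides, which both motifs contain, was 20 in the promoters of these genes and 7 in all promoters. ACGTG alone was present in all 4 promoters above that belong to genes lower in KC3, in 50% of the promoters of the 36 genes and in 19.6% of all promoters. For the 8 genes lower in KC3 than in KC1 and KC2, 77.8% of 9 promoters held either motif, and for the remaining genes 78.4% of 37 did. ACGTG alone was present in 55.6% of those 9 promoters and in 48.6% of those 37. Matches were thus about as frequent in the rest of the 36 as in the genes that were low in KC3. A match is a description of the letters and does not show binding.

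The remaining targets ran the other way or were uncertain. Car9, carbonic anhydrase 9, a surface enzyme that handles acid and a common marker of hypoxic tumours, read 141, 158 and 155 on the KC1 arrays, 151, 132 and 129 on the KC2 arrays, 208, 209 and 187 on the KC3 arrays and 92.5, 100 and 83.8 on the KC4 arrays. KC3 was the highest line and KC4 the lowest, and all arrays of the highly metastatic lines read above KC4. KC3 minus KC4 was 1.13 ± 0.088 (SE, limma adjusted p = 1.22e-05), and the class difference was 0.81, under the minimum. Car12, a related surface carbonic anhydrase, averaged 287 ± 45.5, 383 ± 34.7, 550 ± 39.8 and 265 ± 19.3 in KC1 to KC4 (SD, n = 3). Its KC3 minus KC4 difference was 1.05 ± 0.12 (SE, limma adjusted p = 1.49e-04) and rested on 1 probe set, since the other 2 were near the floor, and without KC3 replicate 3 it was 1.00 and just short of a call.

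Ndrg1, a stress-responsive gene induced by hypoxia, was also highest in KC3, with means of 2976 ± 97.4, 2064 ± 136, 3551 ± 205 and 2573 ± 36.1 in KC1 to KC4 (SD, n = 3). Its brightest probe set gave −0.78 for KC2 minus KC3 and its other 4 gave −0.95 to −1.27. Adm, the vasodilator peptide adrenomedullin, was dim and variable, with 32.3, 128 and 163 on the KC3 arrays. No difference of Adm was called on its brightest probe set. On the other probe set, which was at the floor on 7 arrays, KC1 was higher than KC2 by 1.52, than KC3 by 1.71 and than KC4 by 1.46, each called, and these differences are against signals near the floor.

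Thus the targets were not uniform within a line. In KC3, Bnip3, Ankrd37 and Egln3 were the lowest of any line while Car9, Car12 and Ndrg1 were the highest, each measured on the same arrays.

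**Figure D5:**
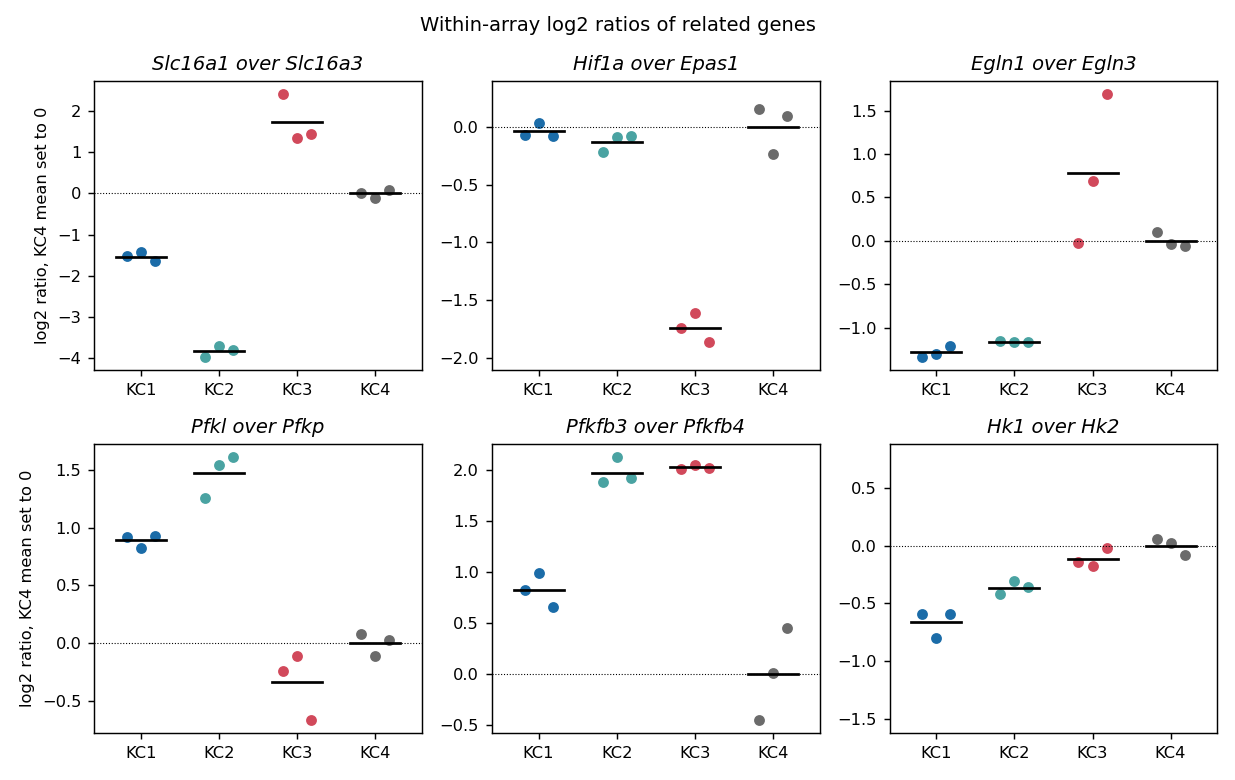
Each point is the log2 ratio of 2 related genes on 1 array (y axis), with the KC4 mean set to 0, by cell line on the x axis, and the bar is the mean of 3 arrays. Each gene is read by its brightest probe set. Slc16a1 over Slc16a3 runs from −3.82 in KC2 to 1.74 in KC3. Hif1a over Epas1 is near 0 in KC1, KC2 and KC4 and −1.73 in KC3. On the dimmer Epas1 probe set, not shown, KC3 exceeded KC4 by only 0.23, and KC1 and KC2 read below KC4.

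Other sensor and regulator pairs were compared in the same way, without a test. Egln1 over Egln3, relative to KC4, was −1.29 ± 0.07, −1.17 ± 0.01 and 0.78 ± 0.86 in KC1 to KC3 (SD, n = 3), and 1 KC3 array lay within the KC4 range. Pfkfb3 over Pfkfb4 was 0.82 ± 0.16, 1.97 ± 0.14 and 2.02 ± 0.02 in the same order. Hk1 over Hk2 was −0.66 ± 0.12, −0.36 ± 0.06 and −0.11 ± 0.08. Aldoa over Aldoc was 0.27, −0.37 and 0.45, and Ldha over Ldhb was 0.05, 0.33 and −0.12. All these ratios use the brightest probe set of each gene, and the last 2 pairs depend on that choice. On the dimmer Aldoc probe set KC2 averaged 6.51 and KC4 6.44, against 11.37 and 10.45 on the brightest. On 2 dimmer x_at probe sets of Ldhb, KC1 averaged 7.20 and 6.49 and KC4 6.07 and 5.77. The brightest gave 8.64 and 8.44.

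Further genes of the same pathways were taken from lists drawn up by function. Of 25 other isozymes and glucose transporters, 23 were measured, 7 had a mean log2 signal over 8 and 3 were called in a comparison of lines, none of them between the metastatic classes. These were the hexokinase-like Hkdc1 for KC1 minus KC2 (−2.25), the muscle mutase Pgam2 for KC1 minus KC3 (1.32) and the ADP-dependent glucokinase Adpgk for KC2 minus KC4 (−1.04), named after their values were seen. Of 14 genes for pyruvate entry into mitochondria, 13 were measured and 1 was called in any comparison, the pyruvate dehydrogenase kinase Pdk2, with line means of 5.68 to 6.90 and also named after its values were seen. Neither list held a gene called lower in KC3 than in both KC1 and KC2.

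Of 25 genes of glycogen, gluconeogenesis and fructose bisphosphatases, 23 were measured and 9 differed among the lines, or 39.1% against 19.0% of all genes. Fbp2, the muscle-type fructose bisphosphatase, which opposes phosphofructokinase, set KC3 apart as lower, with log2 means of 9.77 ± 0.17, 10.42 ± 0.21, 7.52 ± 0.30 and 9.61 ± 0.22 in KC1 to KC4 (SD, n = 3). Its smallest difference was the KC3 minus KC4 value of −2.09 (limma adjusted p = 2.29e-05). G6pc3, the widely expressed glucose 6-phosphatase, set KC2 apart as lower, at 5.92 ± 0.70 against 9.15 to 9.31. It was also the 1 gene of that list called between the classes (−1.20, limma adjusted p = 0.00509), and KC1 and KC3 were within 0.17 of KC4. Fbp2 and Pgm1, a phosphoglucomutase named after its values were seen, were called lower in KC3 than in both KC1 and KC2. They were the only 2 of the 23 measured, against 3.02% of all genes. Pgm1 had log2 means of 10.82, 10.81, 9.59 and 10.46 in KC1 to KC4.

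Of 19 further regulators of HIF, 17 were measured, 3 differed among the lines, or 17.6% against 19.0% of all genes, and none was called between the classes. The genes called in a comparison of lines were P4htm, Siah1a and Siah2. Siah2, a ubiquitin ligase that targets prolyl hydroxylases, set KC2 apart as lower, at 7.28 ± 0.68 against 8.38 to 8.89.

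Of 41 other hypoxia targets, 36 were measured and 14 differed among the lines, or 38.9% against 19.0% of all genes. Between the classes 5 were called higher than in KC4 (all genes, 2.87%) and 2 lower (all genes, 2.57%). Plod2, a collagen-modifying lysyl hydroxylase, set KC4 apart as lower, with log2 means of 11.81 ± 0.02, 11.88 ± 0.05, 10.37 ± 0.05 and 7.94 ± 0.20 (SD, n = 3) and a class difference of 3.41 ± 0.069 (SE, limma adjusted p = 4.25e-09). Ak4, a mitochondrial adenylate kinase, and Mxi1, a Myc antagonist, also set KC4 apart as lower, with class differences of 1.67 and 1.33. Pgf, placental growth factor, was 8.06 in KC1 and 9.40 in KC2 but 5.12 in KC3 and 4.29 in KC4, and its class difference of 3.24 was thus not shared by KC3. Angptl4, an inhibitor of lipoprotein lipase, gave 1.06.

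The 2 lower genes were Hmox1, heme oxygenase 1, at −1.66 and Vldlr, a lipoprotein receptor, at −1.25. Hmox1 set KC2 apart as lower. Vldlr set KC1 apart as higher, so KC1 was called above KC4 and did not share the lower class difference of that gene. Narf set KC3 apart as lower, at 7.38 ± 0.15 against 8.72 to 9.38, and Stc2, a secreted glycoprotein, set it apart as higher, at 9.71 ± 0.14 against 7.95 to 8.34. In this list 6 genes were called lower in KC3 than in both KC1 and KC2, against 3.02% of all genes. They were Plod2, Kdm3a, Tfrc, Fam162a, Narf and Pgf, of which Kdm3a, Tfrc and Fam162a are named after their values were seen. Stc2 was the 1 gene of the list called higher in KC3 than in both (all genes, 1.78%). Tfrc, the transferrin receptor, had log2 means of 13.54, 13.66, 11.50 and 12.42 in KC1 to KC4, and Kdm3a, a histone demethylase, 11.38, 11.57, 9.78 and 10.35. For Tfrc and Kdm3a the KC3 mean was below that of KC4 by less than the minimum, and for Plod2 KC3 was called above KC4.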

How the data were processed

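Signal intensities of 12 one-colour arrays were used as deposited by the authors: a linear intensity per probe set, scaled to a 2% trimmed mean near 500. The sources used here do not name the software. Of 45037 probe sets outside the array's controls, 34945 carried 1 gene symbol in the platform annotation and stood for 18193 genes, each read by its brightest probe set, and 932 with several symbols and 9160 without a listed gene were left out. Signals were floored at 16 and log2 transformed. With limma 3.58.1 (R 4.3.3), 1 coefficient per line was fitted to all 12 arrays, and contrasts were adjusted by Benjamini-Hochberg over all genes. The class contrast weighted KC1, KC2 and KC3 equally. The number of arrays limits the precision. Within lines, log2 signals had a median SD of 0.11 over arrays where a gene averaged over 8, of 0.31 from 6 to 8 and of 0.44 under 6. The steps were tested on simulated data. The members and lists were chosen with earlier results of these data known. Every member is named. Full statistics go to members called between the classes or setting a line apart and to other called members, and from each further list up to 4 called between the classes and up to 4 setting a line apart are named, with stated exceptions. Promoters were searched with Python 3.11.15. Alternatives covered normalization, floor, probe set, dim genes, prior, minimum difference, replicate block, treatment of the line, and leaving out lines or arrays.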

Additional observations from a re-analysis of the deposited data

Results flagged for a closer look

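Slc16a3, Bnip3 and Egln3 stood on opposite sides of the poorly metastatic line in different highly metastatic lines, with the difference between those lines itself called by limma. Slc16a3 was called higher than KC4 in KC1 and in KC2 and lower in KC3, and the lines differed from KC3 by 2.60 ± 0.24 (SE, adjusted p = 3.84e-05) for KC1 and by 4.48 ± 0.24 (SE, adjusted p = 9.30e-07) for KC2. The lower level in KC3 than in KC4 was not called without KC3 replicate 1 (−0.98). Bnip3 had the same arrangement, with 3.03 ± 0.10 (SE, adjusted p = 7.97e-08) for KC1 minus KC3 and 3.01 ± 0.10 (SE, adjusted p = 5.85e-08) for KC2 minus KC3. Egln3 was called higher than KC4 in KC1 and lower in KC3, and KC1 minus KC3 was 2.99 ± 0.38 (SE, limma adjusted p = 2.44e-04). A second Egln3 probe set averaged 8.22 in KC1 and 6.38 in KC4. The Egln3 call of KC1 over KC4 (adjusted p = 0.0373) was kept in only 9 of 22 alternatives. It was lost without any 1 array of KC1, KC2 or KC4, without KC3 replicate 2, without KC2 as a line, and under both normalizations. In each case all 3 arrays of the first line read above all 3 of KC3. The groups of 3 arrays are too small for the test of single outlying arrays.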

How the results depend on the processing

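Of 45 results of single genes, 29 held in every alternative other than a changed minimum difference, and 16 were lost in at least 1. They are calls between lines or classes and cases of a gene setting KC2 or KC3 apart, which rest on calls already among them. Some of these genes, among them Slc16a3, Car9, Bnip3 and Ankrd37, had only 1 probe set. For such genes the alternatives of probe set could not change the signals. The call of Slc16a3 between the classes turned to −0.01 without KC2; the remaining calls kept their direction, apart from Eno2 at 0.00 with a floor of 64. With a minimum of 1.5-fold, the genes called became 7 for the classes, 3 for KC1 minus KC2, 17 for KC1 minus KC3, 7 for KC1 minus KC4, 11 for KC2 minus KC4 and 16 for KC3 minus KC4, and those setting a line apart 2 for KC2, 11 for KC3 and 1 for KC4. With a minimum log2 difference of 2 they were 0, 0, 4, 0, 1 and 1 in the same order, 4 for KC2 minus KC3, 0 apart for KC2 and for KC3, and 5 differing among the lines. The 1.5-fold minimum gave 17 for KC2 minus KC3. Shares of all genes are given above for the 2-fold minimum only, so the counts at these minima have no background beside them. Averaging all probe sets of each gene gave 3 for KC1 minus KC2, 6 for KC1 minus KC4 and 1 setting KC1 apart, and avoiding s_at and x_at probe sets gave 2 for KC1 minus KC2 and 1 setting KC1 apart (Adm). Without the dimmer 50% of genes, which removed 6 of the 33, KC3 minus KC4 gave 5. Between the classes, the line as a random block gave 0, ignoring the line 0, leaving out KC1 2 (Pfkfb3 and Ankrd37) and leaving out KC3 4 (Slc16a3, Pdk1, Egln3 and Bnip3). Leaving out single arrays gave 0 to 2 between the classes; 0 came without KC3 replicate 2 or 3 and 2 without KC4 replicate 3, which added Pfkfb3 at 1.18. The same ranges were 9 to 11 for KC1 minus KC3, 2 to 3 for KC1 minus KC4, 11 to 14 for KC2 minus KC3, 7 to 10 for KC3 minus KC4 and 5 to 6 setting KC3 apart. A replicate block gave 1 call between the classes, 10 for KC1 minus KC3, 12 for KC2 minus KC3, 8 for KC3 minus KC4 and 17 differing among the lines. Same-numbered arrays deviated together in 4 of 18 pairs (mean correlation −0.01), and 4 of 12 arrays correlated best with their own number, so the numbers were not taken as pairs. Median centring ended both calls of Tpi1. The cause of these changes was not tested. Signals near the floor limit Eno2, Adm and Slc2a3 among the 33 genes, and Hkdc1 among the further ones.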
